A study of Mus musculus with 16 samples.

Results

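Small RNA libraries of C2C12, a mouse muscle precursor line whose cells form multinucleated fibres in low serum, held reads for 8 mature miRNAs of the miR-465, miR-463, miR-883, miR-743 and miR-871 families. They are miR-463-5p, miR-465a-3p, miR-465a-5p, miR-465c-3p, miR-465c-5p, miR-883a-3p, miR-743a-3p and miR-871-3p, and make up 8 of the 2274 miRNA names in the tables. They were taken by name, with hairpin copies of a name pooled, and had been chosen by their reads in these 16 libraries with earlier results known. Their levels and group differences are therefore given as descriptions that support nothing further. Each of the 8 had reads in every library, and each passed the filter on low counts that left 807 names.

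The libraries form 4 groups of 4: control cells labelled wild type and triple-knockout cells (tKO) without miR-206 and without both miR-1a genes (miR-1a-1, miR-1a-2). Both were sampled in growth medium (GM, at about 80% confluency) and on day 3 of differentiation (DM3), to ask about the role of the miR-206 family in myogenesis in vitro. Each genotype is represented by 2 lines with 2 numbered replicates each, control populations 1 and 2 or tKO clones 1 and 2, so a group holds 2 independent lines and each tKO line is 1 clone. All groups share the label C2C12 PAX7 NEG; GM held 20% fetal bovine serum and differentiation medium 2% horse serum. Library totals ran from 112792 reads (tKO clone 1, replicate 1 in DM3) to 6543570. In that smallest library 38.2% of reads matched a RefSeq hairpin near a mature start, against 51.5% to 76.4% in the other 15. miR-206-3p, the check of the deletion, lay at 837 to 1466 CPM (reads scaled to a common library total) in control GM and 19950.5 to 57442 in control DM3, against at most 15.5 and 70.9 in tKO. miR-1a-3p, which both miR-1a genes encode, lay at 3.67 to 8.96 in control GM and 28.5 to 165 in control DM3, against at most 3.06 and 7.36 in tKO. The 4 listed muscle miRNAs, which include the deleted ones, all had reads in each group, and their summed CPM was 849 to 1489.9 and 23024 to 59598 in control (GM, DM3) and 7.27 to 20.5 and 98.9 to 973 in tKO. Because the samples are bulk cultures, fewer cells with a miRNA and less of it per cell cannot be told apart.

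A miRNA is cut from a hairpin precursor, leaves from either arm (5p or 3p), and pairs with target messages mainly through its seed, bases 2 to 8 from the 5′ end. A read that starts 1 base away from the usual start therefore carries another seed. The families described here belong to an X-linked group that changes quickly between mammals, duplicates often and is best known from the testis and sperm development.

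The mature sequences are shown because seed sharing and near-identity within the families decide how the reads can be told apart. All 8 matched a RefSeq entry (GRCm38.p6); the seed is in capitals.
miR-463-5p: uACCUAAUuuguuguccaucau
miR-465a-3p: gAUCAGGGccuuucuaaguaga
miR-465c-3p: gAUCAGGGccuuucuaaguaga
miR-465a-5p: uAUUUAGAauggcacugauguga
miR-465c-5p: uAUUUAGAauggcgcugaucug
miR-883a-3p: uAACUGCAacagcucucaguau
miR-743a-3p: gAAAGACAccaagcugaguaga
miR-871-3p: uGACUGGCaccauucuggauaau
The closest relatives outside the 8 share a seed or come near it.
miR-883b-3p: uAACUGCAacaucucucaguau
miR-743b-3p: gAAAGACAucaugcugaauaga
miR-465d-3p: uGAUCAGGgccuuucugaguaa

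miR-465a-3p and miR-465c-3p are the same molecule, as is miR-465b-3p, so reads of these names cannot be assigned to a hairpin. The 5p arms of miR-465a and miR-465c share the seed AUUUAGA with miR-465b-5p and miR-465d-5p. Counting from 1 at the 5′ end, miR-465a-5p differs from miR-465c-5p by A14G and G20C, both outside the seed. miR-883a-3p differs from miR-883b-3p only by G12U, and miR-743a-3p from miR-743b-3p by C9U, A12U and G18A. No other mature name in the RefSeq table had the seed of miR-463-5p or of miR-871-3p.

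The 7 hairpins of these miRNAs lie among 19 annotated hairpins on the minus strand of chromosome X (GRCm38, GENCODE M21) at chrX:66776757-66839125, a stretch of 62369 bases. In transcription order, Mir465 (66839052 to 66839125) comes first, then Mir465c-2 (66832517 to 66832597), Mir465c-1 (66825955 to 66826035), Mir871 (66810428 to 66810504), Mir463 (66799223 to 66799297), Mir883a (66780758 to 66780833) and Mir743 (66776757 to 66776818). None of the 7 overlaps another annotated gene, so no exon, intron or UTR of a host gene is annotated there. The nearest protein-coding gene on the low side was Slitrk2, which ends 115363 bases away, and on the high side Gm1140, which starts 843774 bases away.

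The 8 miRNAs together took 0.365% to 0.646% of all reads of control libraries in GM and 0.461% to 0.889% in DM3. In tKO libraries they took 0.0874% to 0.365% in GM and 0.165% to 0.615% in DM3. miR-871-3p supplied 59.7% of these reads and miR-465c-5p 19.2%. miR-463-5p supplied 0.621% and miR-465a-5p 1.05%. Levels below are CPM scaled by edgeR's TMM factors, which correct for differences in composition. Over the 16 libraries the mean level was 2507 for miR-871-3p, 651 for miR-465c-5p, 285 for miR-465a-3p, 260 for miR-465c-3p, 130 for miR-743a-3p, 129 for miR-883a-3p, 33.5 for miR-465a-5p and 26.1 for miR-463-5p. The neighbours in this order miR-465a-3p and miR-465c-3p, and miR-743a-3p and miR-883a-3p, overlapped widely across libraries. Mature miRNAs are of nearly 1 length, so these levels were not divided by length.

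**Figure D1:**
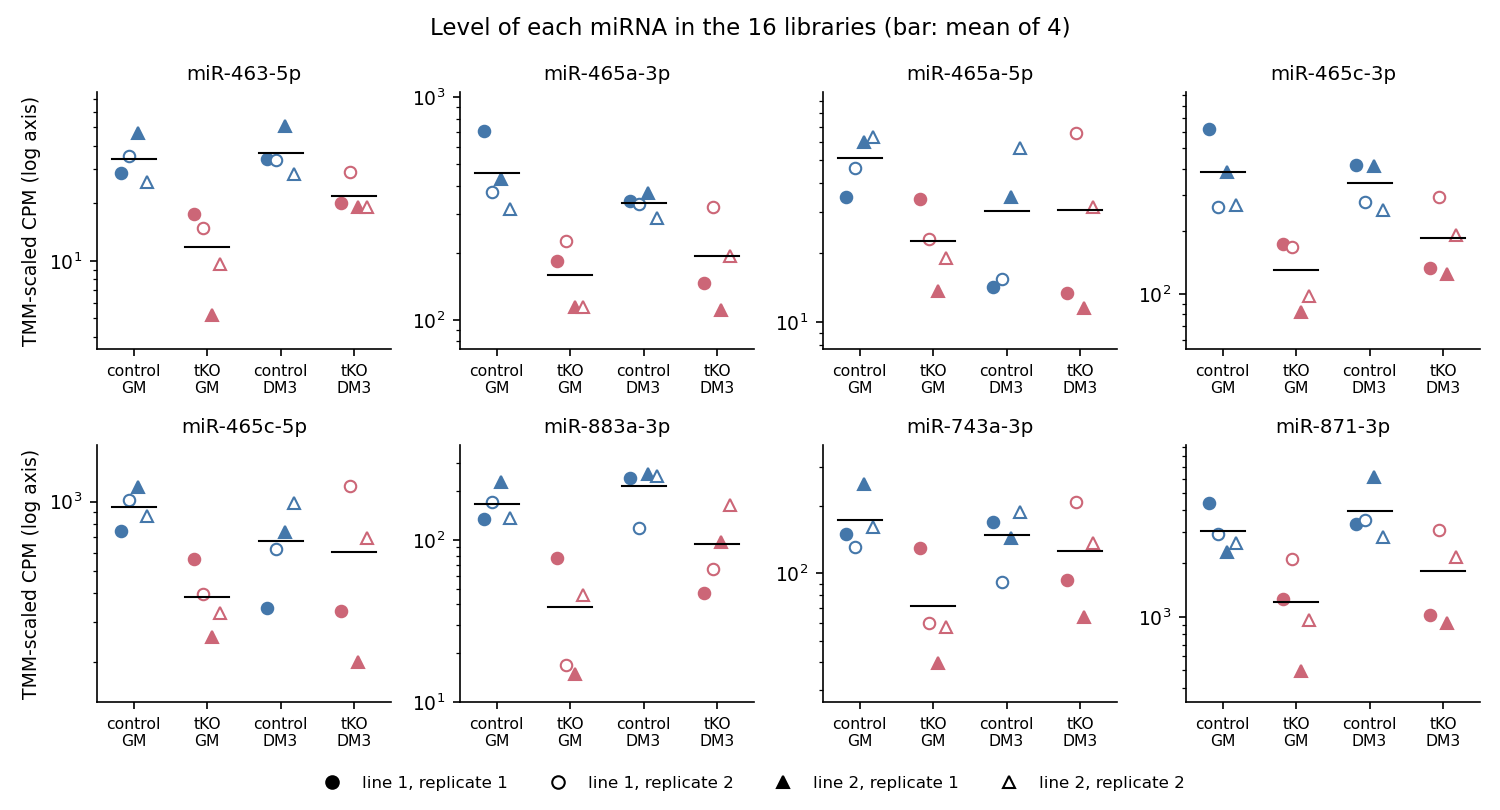
TMM-scaled CPM of each miRNA (log axis) in the 16 libraries, with line 1 as circles, line 2 as triangles, replicate 1 filled and replicate 2 open; bars are the mean of 4. In GM the tKO points lie below all control points in each panel, and in DM3 the genotypes overlap in each panel.

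In GM, the fitted level of each of the 8 miRNAs was lower in tKO than in control, by 2.32-fold to 2.93-fold for 7 of them. miR-883a-3p was 4.35-fold lower by name, a log2 fold change of -2.12 that became -1.48 when its reads were assigned by sequence. For miR-871-3p, the most abundant, the control GM libraries held 4390.1 and 2919 (population 1) and 2333 and 2608 (population 2). The tKO GM libraries held 1258 and 2122 (clone 1) and 497 and 960 (clone 2). The groups did not overlap in TMM-scaled CPM, and clone 2 was the lower of the clones. The fitted log2 fold change was -1.34 ± 0.44 (SE), from group means of 3063 ± 917 and 1209 ± 684 (SD, n = 4).

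The miR-465 arms, from a set of recently duplicated hairpins, showed the same order. miR-465a-3p stood at 703, 374, 430 and 316 in control GM, with population 1 before population 2 and replicate 1 before replicate 2. In tKO GM it stood at 184, 226, 114 and 114 in the same order of lines and replicates, a log2 fold change of -1.51 ± 0.39 (SE). Population 1, replicate 1 was the highest control library, and both clone 2 libraries were the lowest. miR-465c-3p, which is the same molecule and is no independent measurement, gave -1.55 ± 0.40. miR-465c-5p held 744, 1018, 1158 and 867 in control GM and 560, 396, 256 and 328 in tKO GM, a log2 fold change of -1.30 ± 0.46. For this arm clone 2 was again below clone 1. miR-465a-5p, with only 17 to 338 reads a library in control GM, ranged from 34.9 to 62.8 there and from 13.6 to 34.0 in tKO GM, so its groups came close to touching (-1.22 ± 0.52).

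miR-463-5p, the least abundant, held 28.8, 35.1, 46.7 and 25.8 in control GM and 17.5, 14.8, 5.19 and 9.62 in tKO GM (-1.55 ± 0.39). Its lowest value rests on 8 reads, with a Wilson 95% interval of 2.25 to 8.76 in plain CPM. Such intervals cover counting error only, since the reads carry no molecular identifiers. miR-743a-3p ranged from 132 to 251 in control GM and from 39.6 to 130 in tKO GM (-1.28 ± 0.44), with clone 1, replicate 1 almost at the lowest control. miR-883a-3p held 134, 171, 227 and 137 in control GM and 77.4, 16.9, 14.9 and 45.8 in tKO GM (-2.12 ± 0.52), but this value depends on how the reads were named, as shown further on.

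Across the 807 names fitted by edgeR in GM, 1.12% passed an adjusted p under 0.05, and 0 of the 8 did. All 8 had an unadjusted p under 0.05, against 8.05% of all names (4.83% with the lower level in tKO), and DESeq2 called 4 of them, against 2.48% of all names. The count of 8 whose TMM-scaled groups did not overlap stands beside 5.45% of all names, and nothing is read from it, since reads of these names chose them. In plain CPM 6 did not overlap, against 4.09% of all names; miR-465a-3p and miR-871-3p then overlapped. The median log2 fold change was -1.43 for the 8 and 0.11 for all names. Without the DM3 library of tKO clone 1, replicate 1, the shallowest, or without replicate 2 of that clone in DM3, edgeR called 4 of the 8 in GM, against 1.86% and 1.90% of all names. It called 2 without clone 1, replicate 1 in GM (1.57% of all names), and 1 without clone 1, replicate 2 in GM (1.31%). Within replicate number 1 alone the 8 log2 fold changes ran from -1.96 (miR-883a-3p) to -1.02 (miR-465a-5p), and within number 2 alone from -2.39 (miR-883a-3p) to -0.99 (miR-871-3p).

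**Figure D2:**
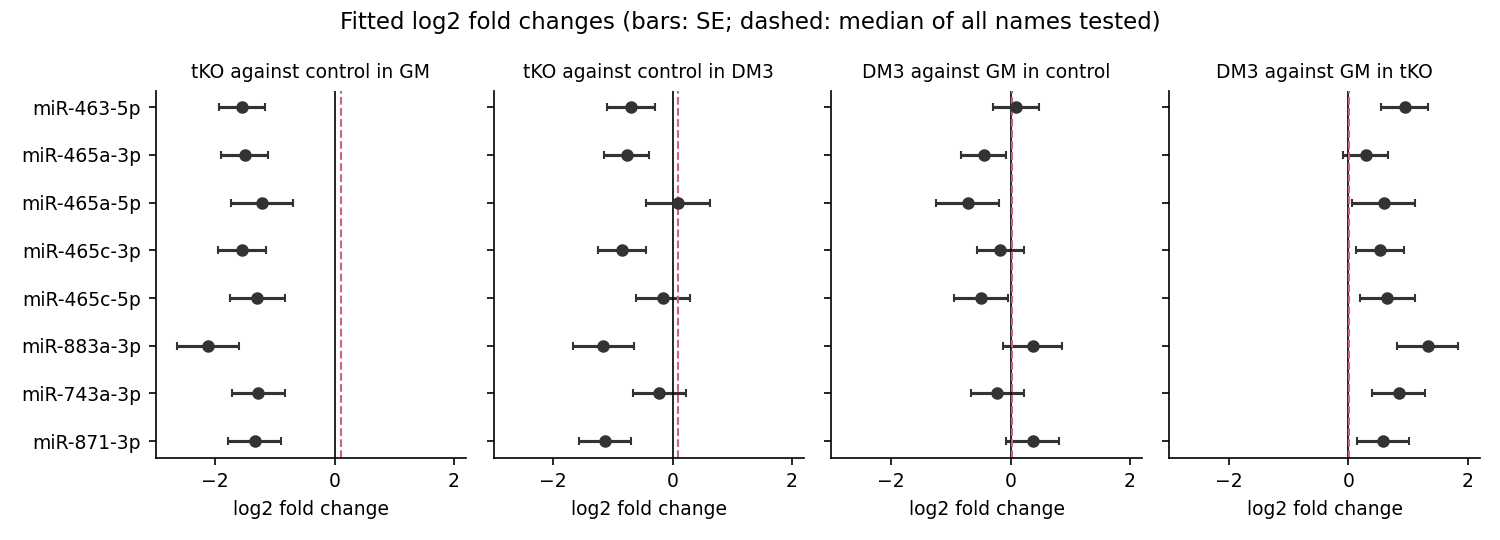
Fitted log2 fold change of each miRNA with its SE in the 4 comparisons; the dashed line is the median of all 807 names. The 8 points lie between -2.12 and -1.22 for tKO against control in GM, and spread from -1.16 to 0.09 in DM3.

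On day 3 of differentiation the genotypes overlapped for each of the 8; of all names, 2.60% were apart with tKO lower. miR-871-3p held 3329.6, 3512, 6158 and 2813 in control DM3, again with population 1 first. In tKO DM3 it held 1029 and 3069 in clone 1 and 926 and 2186 in clone 2. Of the 4 tKO libraries 3 were below every control library, while clone 1, replicate 2 was above the lowest control. The log2 fold change was -1.13 ± 0.44 (SE). It was -2.10 within replicate number 1 alone and -0.42 within number 2 alone, and the tKO libraries of number 1 were also the shallower ones, with 112792 and 736900 reads against 3125381 and 4542927. The control DM3 libraries of number 1 were shallower too, with 247964 and 398063 reads against 926448 and 2991983. The part of depth in these log2 fold changes was not tested.

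miR-465c-5p held 344, 623, 741 and 986 in control DM3 and 334, 1175, 200 and 693 in tKO DM3. Its highest and its lowest library were both tKO, and the log2 fold change was -0.16 ± 0.45. miR-465a-3p stayed lower on average, with 341, 333, 372 and 287 in control and 147, 321, 111 and 193 in tKO (-0.77 ± 0.38). Here 3 of the 4 tKO libraries were below all controls, and clone 1, replicate 2 was not. The log2 fold change was -1.16 ± 0.51 for miR-883a-3p by name and -0.46 ± 0.39 by sequence. The remaining values were -0.85 ± 0.40 for miR-465c-3p, -0.70 ± 0.40 for miR-463-5p, -0.22 ± 0.44 for miR-743a-3p and 0.09 ± 0.53 for miR-465a-5p. That of miR-465a-5p was 0.75 without population 2, replicate 2 in DM3, and -0.61 without clone 1, replicate 2 in DM3. Within replicate number 1 alone the 8 values ran from -2.10 (miR-871-3p) to -0.83 (miR-465c-5p). Within number 2 alone they ran from -0.73 (miR-883a-3p) to 0.17 (miR-465a-5p). miR-465c-3p had -1.52 and -0.30, and miR-465a-3p -1.31 and -0.45.

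In DM3 0.867% of the 807 names passed edgeR's adjusted threshold and 0 of the 8 did. At an unadjusted p under 0.05 there were 3 of the 8, against 11.2% of all names (6.20% with the lower level in tKO), and DESeq2 called 0, against 2.35%. Their median log2 fold change was -0.74, and that of all names 0.09. The direction was not stable for miR-465a-5p, miR-465c-5p and miR-743a-3p, which changed sign under 6, 4 and 2 of 30 alternative settings. In the shallowest tKO library miR-465a-5p rests on 2 reads, with a Wilson 95% interval of 4.86 to 64.7 in plain CPM.

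Within a genotype, the 2 media can be compared between the same lines. In control cells the 8 log2 fold changes for DM3 against GM ran from -0.72 ± 0.52 (miR-465a-5p) to 0.37, the value of both miR-883a-3p (SE 0.50; 1.03 by sequence) and miR-871-3p (SE 0.44). The value of miR-465a-5p was -1.37 without population 2, replicate 2 in DM3, and 0.02 with names set from the sequence. The fit called 27.6% of all names there and 0 of the 8; 0 of the 8 had an unadjusted p under 0.05, against 38.9% of all names, and DESeq2 called 0, against 30.9%. In tKO cells all 8 values were above 0, from 0.29 ± 0.38 (miR-465a-3p) to 1.33 ± 0.51 (miR-883a-3p; 2.05 ± 0.40 by sequence), and miR-463-5p had 0.94 ± 0.40. Here edgeR called 19.7% of all names and 0 of the 8, with 2 of the 8 at an unadjusted p under 0.05 against 32.5%, and DESeq2 called 1, against 26.0%. With names set from the sequence edgeR called 2 of the 8, miR-883a-3p among them, against 26.1% of all names. With line and replicate number as blocks, which compares each clone with itself, miR-463-5p was called, as were 23.9% of all names. It was also the only 1 of the 8 whose tKO groups did not overlap in TMM-scaled CPM, with at most 17.5 in GM and at least 19.2 in DM3; 9.42% of all names were apart in this direction. Within replicate number 1 alone, miR-465a-3p, miR-465a-5p, miR-465c-5p and miR-743a-3p had values below 0, from -0.96 to -0.06.

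The difference of the differentiation effects, tKO minus control, was above 0 for each of the 8, from 0.21 ± 0.62 for miR-871-3p to 1.30 ± 0.74 for miR-465a-5p. This comparison shares its libraries with those above. edgeR called 0 of the 8 and 0% of all names in it, with 0 of the 8 at an unadjusted p under 0.05 against 4.58% of all names, and DESeq2 called 0 of the 8 and 0% of all names. For miR-871-3p the sign changed under 6 of 30 alternative settings.

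The clones were compared over both media. The log2 fold change of clone 2 against clone 1 was -0.90 to -0.68 for 7 of the 8, while the median of all names was -0.25. These values depended on single libraries. With 1 library left out, miR-465a-5p ran from -1.39 to 0.03, miR-465c-5p from -1.33 to -0.10 and miR-871-3p from -1.17 to -0.26. For miR-871-3p the clone means in GM were 1689.9 and 728, and in DM3 2049 and 1556 (n = 2 each). miR-883a-3p, with 0.30 ± 0.50, was the exception. Counted by sequence all 8 were lower in clone 2, with values from -1.18 to -0.98. That fit used its own library totals and TMM factors, and the other 7 moved lower in it too, miR-871-3p from -0.81 to -1.12. The median of -0.25 belongs to the fit by name, and none is given here for the fit by sequence. edgeR called 1.36% of all names between the clones and 0 of the 8, with 0 at an unadjusted p under 0.05 against 15.6%, and DESeq2 called 0, against 4.46%. Between the control populations the 8 values ran from -0.28 to 1.11, with 5 above 0. There edgeR called 0% of all names and 0 of the 8, with 1 at an unadjusted p under 0.05 against 3.97%, and DESeq2 called 0 of the 8 and 0% of all names.

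A list of 32 other arms of related X-linked miRNAs was drawn up by name, with earlier results of these data known. Of these, 20 passed the filter, and 18 of the 20 come from the 19 mapped hairpins; miR-547-3p and miR-509-5p do not. In GM 19 of the 20 had a lower fitted level in tKO, the 18 mapped arms among them, with a median log2 fold change of -1.19; miR-547-3p, at 1.24, was the exception. edgeR called 0 of the 20, against 1.12% of all names, with 12 at an unadjusted p under 0.05, against 8.05%. DESeq2 called 4, against 2.48%. The edgeR count was 1 without clone 1, replicate 1 or 2 in DM3 (1.86% and 1.90% of all names). It was also 1 without clone 2, replicate 1 in DM3 (1.36%) or clone 1, replicate 1 in GM (1.57%). It was 1 without a filter on low counts (0.660%), with a smallest count of 3 (1.08%) and with only the groups compared (1.43%). With reads that match the hairpin (5.59%) and names set from the sequence (4.83%) it was 1 as well. miR-470-5p, the most read of the list, had group means in GM of 1423 ± 432 (control) and 566 ± 234 (tKO; SD, n = 4), a log2 fold change of -1.33 ± 0.38 with an edgeR adjusted p of 0.118. miR-880-3p had -1.45 ± 0.44 (adjusted p 0.162), miR-741-3p -1.19 ± 0.52 (adjusted p 0.508) and miR-881-3p -1.01 ± 0.64 (adjusted p 0.835). miR-509-5p is also among the 5 most read names, but only 0.178% of its reads lacked a mismatch, so no level is given for it. The counts over the 20 include it all the same. The counts over the 20 and the 18 also include miR-883b-3p, whose reads by name hold miR-883a reads, as shown further on.

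In DM3 13 of the 20 were below 0 and 7 above, with a median of -0.13. edgeR called 0, against 0.867% of all names, with 2 at an unadjusted p under 0.05, against 11.2%, and DESeq2 called 0, against 2.35%. For DM3 against GM in tKO all 20 were above 0, and edgeR called 2 as higher, a smaller share than the 19.7% of all names called in either direction. At an unadjusted p under 0.05 there were 7, against 32.5% of all names, and DESeq2 called 3, against 26.0%. The count was 5 without clone 1, replicate 1 in GM (14.6% of all names), 0 without clone 1, replicate 2 in DM3 (17.3%) and 0 without either GM library of clone 2 (12.2% and 12.7%). It was 1 without clone 1, replicate 2 in GM (18.2%), and 1 to 3 with any 1 control library left out (15.4% to 17.9%). Over the other alternatives it ran from 0 to 6, beside shares of all names from 5.45% to 26.8%. miR-880-3p rose from 72.2 ± 28.1 to 200 ± 120 (SD, n = 4), a log2 fold change of 1.49 ± 0.44 with an adjusted p of 0.0227. miR-471-5p rose from 19.5 ± 13.9 to 55.4 ± 30.4, a log2 fold change of 1.56 ± 0.49 with an adjusted p of 0.0312. Neither call held without clone 1, replicate 2 in DM3 (adjusted p 0.107 and 0.160), nor without either GM library of clone 2 (0.0651 and 0.0945 for miR-880-3p, 0.126 and 0.131 for miR-471-5p). The call of miR-471-5p was also lost without clone 1, replicate 2 in GM (0.0827), clone 2, replicate 2 in DM3 (0.0588), and each of 6 control libraries (0.0510 to 0.0628). Both were also lost without a filter on low counts (0.0837 and 0.103), with only the groups compared (0.0821 and 0.110) and within replicate number 1 alone (0.412 and 0.682), and miR-471-5p with a smallest count of 3 (0.0534). With line and replicate blocks 4 of the 20 were called, both of these among them, against 23.9% of all names. For DM3 against GM in control edgeR called 0 of the 20, against 27.6% of all names, with 1 at an unadjusted p under 0.05, against 38.9%. DESeq2 called 0, against 30.9%, and the fit with line and replicate blocks called 2, against 34.0% of all names.

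**Figure D3:**
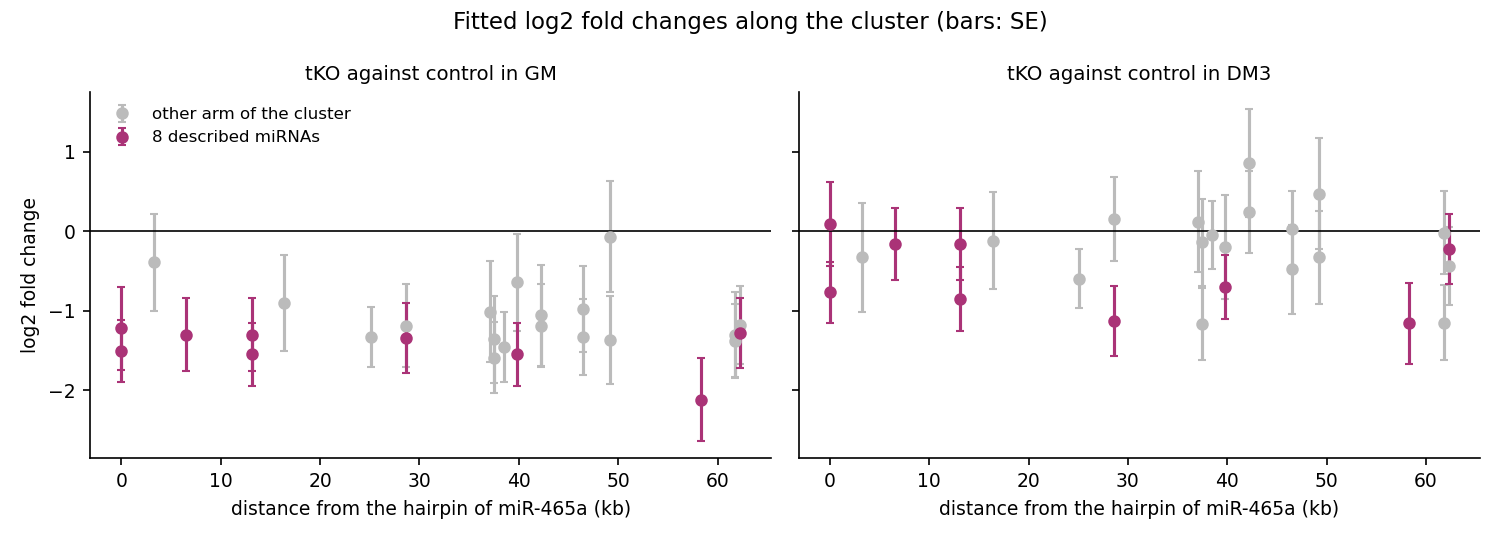
Fitted log2 fold change with its SE for the 8 miRNAs and the 18 other mapped arms past the filter, against the distance of its hairpin from that of miR-465a in kb; coloured points are the 8 miRNAs, and miR-465c-5p is drawn at both of its hairpins. For tKO against control in GM each drawn arm along the 62.3 kb lies below 0, and in DM3 the arms lie on both sides of 0.

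Over the 16 libraries the levels of the 8 correlated with each other with a Spearman rho of 0.42 (miR-465a-5p and miR-883a-3p) to 0.94, with a median of 0.70 over 28 pairs. The highest was between miR-465a-5p and miR-465c-5p. These points share libraries and depth, and some of the names share reads. By the same measure the 3 names outside the 8 most like miR-871-3p, of 799 compared, were miR-470-5p (0.96), miR-878-3p (0.85) and miR-743b-5p (0.84), and all 3 are arms of the same cluster. The next in order, miR-298-5p and the deleted miR-1a-3p (both 0.79), are not; in all, 5 of the first 10 are outside the cluster list.

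Where the reads of a hairpin could be split between arms, the named arm was the more abundant. miR-871-3p took 96.3% of the reads of its hairpin, between 95.2% and 99.3% by library. miR-883a-3p took 98.4%, with only 72 reads listed for miR-883a-5p in all. miR-463-5p took 72.2% (57.9% to 93.3%). miR-743a-3p took 62.0% (45.0% to 71.4%) and was the lower arm in 1 of the 16 libraries.

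The most read form of a miRNA was not always the RefSeq mature form. For miR-463-5p, the 23-base form with 1 more base at its 3′ end made up 64.0% of 863 reads, and the RefSeq form 17.8%. For miR-871-3p the RefSeq form made up 78.6% of 83026 reads and for miR-743a-3p 57.6% of 4777. The names miR-465a-3p and miR-465c-3p split 1 molecule by its listed form. Of the 8157 reads under miR-465c-3p, 8141 were listed as the exact 22-base sequence, of which miR-465a-3p held 0%. Nearly all reads of other forms were listed under miR-465a-3p. Of the reads under miR-465a-5p, 7.86% were a 37-base form that runs on past the mature end, and 88.1% of its reads were 18 to 25 bases long, against 98.5% to 99.9% for the other 7. Reads that carried added bases after their templated end made up 4.97% (miR-465c-3p) to 22.2% (miR-465c-5p) of the 8, and 29.0% of all reads. These bases are counted apart from the listed sequence, so a read counted above as a given form or length can carry them as well.

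The share of reads at each 5′ end was not among the values that chose the names, though it comes from the same reads. It was counted from reads that match a hairpin exactly and start within 3 bases of the mature start, whatever their listed name. miR-871-3p, miR-463-5p, miR-465a-5p and miR-465c-5p started at the RefSeq position in at least 99.4% of such reads. The 3p arms of miR-465a/b/c, miR-883a and miR-743a each had a second start that moves the seed. They are shown as listed in the tables, in DNA letters, with the moved seed in capitals.
miR-465a/b/c-3p, start 1 base upstream: tGATCAGGgcctttctaagtaga
miR-883a-3p, start 1 base downstream: aACTGCAAcagctctcagtatt
miR-743a-3p, start 1 base downstream: aAAGACACcaagctgagtaga
The upstream form of miR-465a/b/c-3p carries the seed GAUCAGG, which in the RefSeq table is otherwise that of miR-465d-3p. No mature name had the moved seeds of miR-883a-3p or miR-743a-3p.

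The upstream start took 36.5% of 16780 reads of miR-465a/b/c-3p, between 25.4% and 43.1% by library. In tKO it was lower in DM3 (33.8%, 34.2%, 27.5% and 32.6%) than in GM (35.6%, 41.9%, 43.1% and 38.2%), listed as clone 1 then clone 2. The tKO groups did not overlap, and the mean difference was -7.65 points. In control the means were 30.9% ± 5.16 in DM3 and 36.8% ± 3.28 in GM (SD, n = 4), and the libraries overlapped.

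For miR-883a-3p the downstream start took 36.2% of 5193 reads. In control GM it took 34.4%, 25.1%, 31.0% and 27.7%, and in control DM3 39.5%, 41.5%, 36.7% and 45.7%. In tKO GM it took 35.2%, 24.0%, 23.8% and 26.8%, and in tKO DM3 38.1%, 45.4%, 47.0% and 43.1%. All 8 DM3 libraries were above all 8 GM libraries, and genotypes overlapped within each medium. The mean difference for DM3 against GM was 11.3 points in control and 15.9 points in tKO. The lowest DM3 value of tKO rests on 42 reads.

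For miR-743a-3p the downstream start took 21.3% of 4478 reads. Its means in GM were 16.0% ± 4.28 (control) and 18.7% ± 2.53 (tKO; SD, n = 4), and in DM3 31.4% (control, range 20.0% to 51.8%) and 18.3% ± 7.89 (tKO). The highest, population 2, replicate 1 in DM3, rests on 56 reads.

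The 3 miRNAs were compared between groups in 4 contrasts each with an exact permutation test over libraries (two-sided), 12 tests in all. With 4 against 4 libraries the smallest p is 0.0286. It was reached for miR-883a-3p between media in both genotypes and for miR-465a/b/c-3p between media in tKO, and each of these had a Benjamini-Hochberg adjusted p of 0.114 by the exact test. The other 9 had exact p values of 0.0571 to 0.943, so 0 of the 12 passed after adjustment, with 3 under 0.05 before it. At this group size at least 7 of the 12 would have to reach the smallest p for any to pass, so the adjusted values say little about whether the shares differ. The 4 libraries of a group come from 2 lines, which the test does not take into account. Nor does the test pair the media by line and replicate number.

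**Figure D4:**
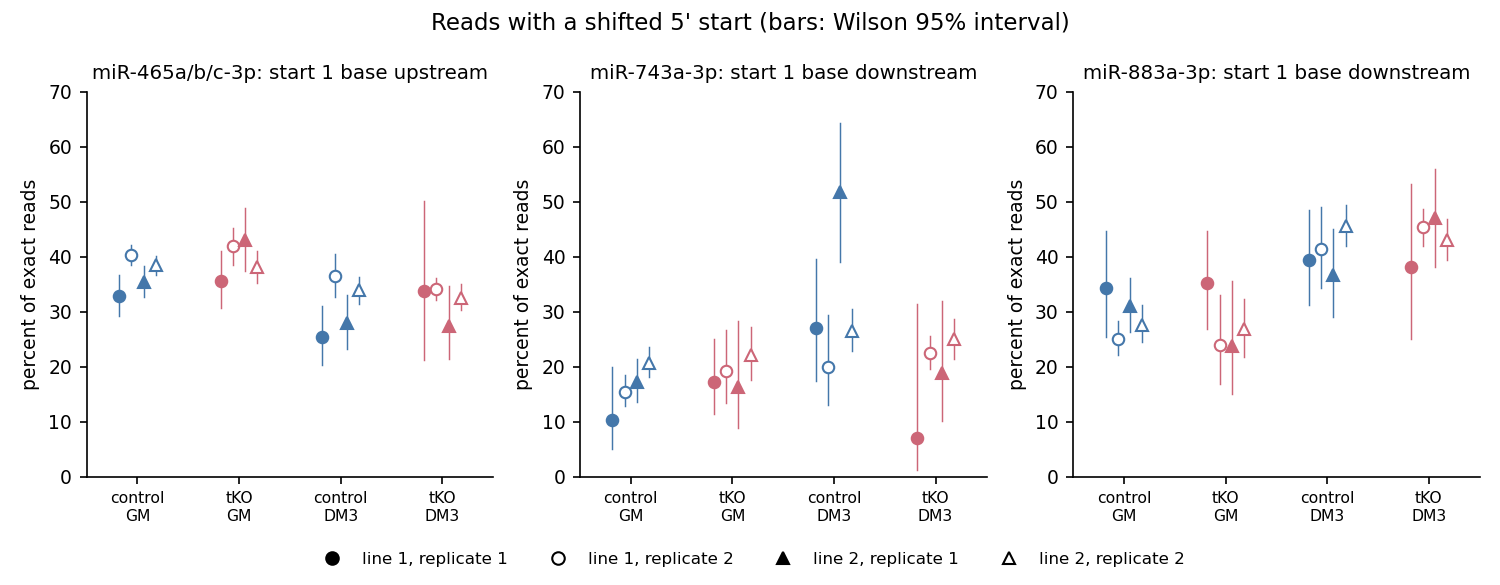
Percent of exact reads with the shifted 5′ start for 3 miRNAs in each library, with Wilson 95% intervals; line 1 as circles, line 2 as triangles, replicate 1 filled, replicate 2 open. For miR-883a-3p the DM3 points (36.7% to 47.0%) lie above the GM points (23.8% to 35.2%) in both genotypes.

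The level of miR-883a-3p depended on the name its reads were given. Its most read form, 23 bases long, matches the miR-883a hairpin exactly, yet it was listed under miR-883a-3p in 12 libraries (1834 reads) and under miR-883b-3p, as a mismatched form, in the other 4 (426 reads). The level of miR-883b-3p by name therefore holds miR-883a reads. The 22-base form with the downstream start was listed under miR-883a-3p in 6 libraries (844 reads) and under miR-883b-3p in 10 (600 reads). Neither was listed under both names in any library. In tKO clone 1, replicate 2 in DM3, the count by sequence was 818 reads, 338% of the count by name, and in replicate 1 of that clone it was 42 reads, 600% of that by name. In population 2, replicate 2 in control GM it was 703 reads, 95.6% of that by name.

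Counted by sequence, miR-883a-3p held 185, 158, 221 and 131 in control GM and 108, 44.1, 40.9 and 50.0 in tKO GM. The groups still did not overlap, and clone 1, replicate 1 was the highest of tKO. The log2 fold change in GM was -1.48 ± 0.39 in place of -2.12, and the other 7 ran from -1.45 to -1.04. In DM3 the means were 266 ± 80.2 in control and 202 ± 62.3 in tKO (SD, n = 4), and the log2 fold change was -0.46 ± 0.39 in place of -1.16. Counting by sequence, which was chosen after the naming had been seen, tests 352 names, and edgeR then called 4 of the 8 in GM, where miR-465a-3p and miR-465c-3p are the same reads, against 4.83% of all names. It called 0 in DM3, against 3.12%. For DM3 against GM in tKO it called 26.1% of all names and 2 of the 8, a share near that background: miR-883a-3p (2.05 ± 0.40) and miR-743a-3p (1.11 ± 0.39). For DM3 against GM in control miR-883a-3p had 1.03 ± 0.39 by sequence, in place of 0.37 by name, and was not called. The fit by sequence also used its own library totals and TMM factors, so naming is not its only change. In this contrast the other 7 were higher than by name too, with 0.77 in place of 0.37 for miR-871-3p. The levels by sequence given above kept the totals and factors of the count by name, so they and the log2 fold changes by sequence are on different scales.

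**Figure D5:**
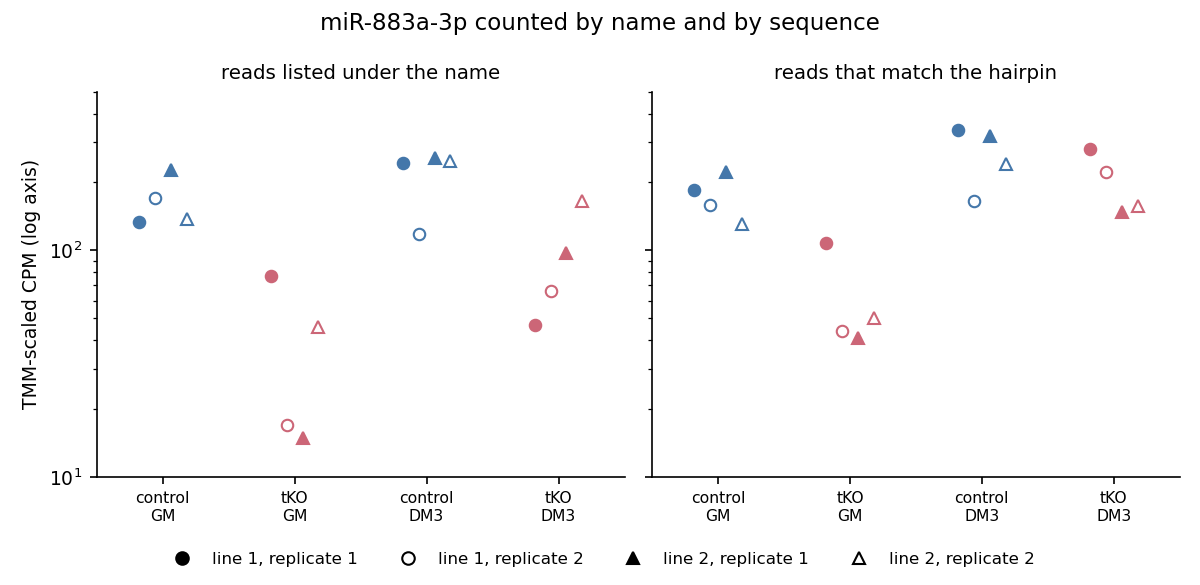
TMM-scaled CPM (log axis) of miR-883a-3p per library, counted from reads listed under its name (left) and from reads that match its hairpin (right); symbols as in the plot of levels. By sequence the tKO DM3 libraries hold 147 to 281, against 46.8 to 165 by name.

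Markers of other cell types were summed per library as plain CPM. Of 7 miRNAs listed for male germ cells, 6 had reads, and their sum ranged over 4321 to 5347 (GM) and 4651 to 5888 (DM3) in control, and 2018 to 5359 (GM) and 2004 to 6731 (DM3) in tKO. This sum was led by miR-34c-5p, at a mean of 2864, while miR-449a-5p had 1.88 and miR-449b no read. The listed miRNAs thus differed widely, and nothing about germ cells is read from their sum. Of 10 markers of blood, epithelium, neurons and liver, 8 had reads in GM and 7 in DM3, and their sum ranged over 15.6 to 42.4 (GM) and 4.03 to 16.2 (DM3) in control, and 33.9 to 114 (GM) and 8.87 to 41.0 (DM3) in tKO. The liver miRNA miR-122-5p led this sum, with 861 reads in all and up to 75.5 CPM. Of the 4 blood markers miR-142a-3p had 19 reads, miR-223-3p 42, miR-451a 2 and miR-142a-5p none, and miR-124-3p of neurons had none. The part of other cell types in the levels of the 8 miRNAs was not tested.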

How the data were processed

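Small RNA libraries were made from 0.5 µg of total RNA and size selected for inserts of 15 to 50 nt, per the labels' protocols. The submitters' processing notes name cutadapt 1.15, STAR 2.5.4 and mm10. The authors' deposited tables, whose names show that unitas assigned the miRNAs, list sequences of 13 to 75 nt and their reads, per the file headers. The deposited values are estimated counts (expected counts) without normalization; the unitas version and miRNA release are not given in the sources used here. Fractional values occur, so they need not be whole.

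The members and all lists were chosen with earlier results of these data known. Reads were summed per name and library; 236 of 2510 names were merged into their mature name, which left 2274. Sums were rounded for the tests. All 16 libraries entered 1 edgeR 4.0.16 fit (R 4.3.3) with a coefficient per group (per line and medium for comparisons of lines), filterByExpr with a smallest count of 10, TMM scaling and robust quasi-likelihood F tests, with Benjamini-Hochberg adjustment over 807 names and a threshold of 0.05. The fit was tested on simulated data. DESeq2 1.42.0 was an alternative. The 8 members are named whatever their values, with at most 5 of 32 other arms, those with most reads, and the 3 names most like miR-871-3p. miR-471-5p, miR-547-3p, miR-298-5p and miR-1a-3p as a likeness were named after their values were seen. Sequences were matched to RefSeq hairpins exactly, with at least 16 nt. Depth limits the rarer names: a level of miR-463-5p or miR-465a-5p rests on as few as 3 or 2 reads. The labels number the replicates without saying how they were made, so the p-values measure the spread between these libraries.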

Additional observations from a re-analysis of the deposited data

Results flagged for a closer look

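Among 44 sets of 4 libraries (levels of the 8 miRNAs and shares of shifted starts, by group), 2 held a library set apart from the other 3 by Dixon's criterion, where chance alone gives about 1 in 20. miR-463-5p in tKO DM3 was 29.1 TMM-scaled CPM in clone 1, replicate 2, against 19.2 to 20.0 in the other 3; the level of 20.0 rests on 3 reads. miR-883a-3p in control DM3 was 118 in population 1, replicate 2, against 242 to 256 in the other 3. Counted by sequence that library stood at 165 and was not set apart by the same criterion, with the others at 240 to 339.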

How the results depend on the processing

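For tKO against control in GM, where edgeR called 0 of the 8, the count, with the share of all names called in brackets, was 1 with total count scaling (1.36%), 1 without a filter on low counts (0.660%), 1 with a smallest count of 3 (1.08%), 4 with the DESeq2 Wald test (2.48%), 2 with reads without mismatch or tail (3.00%), 1 with sequences of 18 to 25 nt (3.25%), 4 with reads that match the hairpin of the same name (5.59%) and 4 with names set from the sequence (4.83%). For DM3 against GM in tKO, also 0, it was 1 with total count scaling (19.0%), 1 with the DESeq2 Wald test (26.0%), 1 with the line and replicate block (23.9%), 1 with reads without mismatch or tail (24.7%), 1 with sequences of 18 to 25 nt (22.9%), 3 with reads that match the hairpin (26.8%) and 2 with names set from the sequence (26.1%). Between the clones it was 1 with reads that match the hairpin (3.91%) and 1 with names set from the sequence (3.69%). Fewer names are tested where reads are restricted (352 to 493 in place of 807); otherwise the cause was not tested. Leaving out each library in turn gave 0 to 4 for tKO against control in GM, 0 to 1 for DM3 against GM in tKO (the 1 beside 14.6% of all names) and 0 to 0 in the other 5 comparisons. In tKO against control in DM3, DM3 against GM in control, the difference of these effects and the control populations, each alternative run gave 0. The replicate block alone gave 0 in each comparison; it is an alternative because the deviations of same-numbered libraries from their group means had a mean correlation of 0.0911 over 48 pairs (lowest -0.408). Direction in GM held for each of the 8 under all 30 alternatives, from -2.66 to -0.94. Names set from the sequence and each replicate number alone were chosen after seeing the data. In tKO the downstream start share of miR-883a-3p between media and the other shares moved by less than the spread between replicates under each alternative run.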
